A study of Mus musculus with 26 samples.

Results

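Natural killer T (NKT) cells grown in culture were compared with the most mature NKT cells of the thymus. The cultured cells, called DN1eP-NKT, make up 4 libraries, and the thymic cells, called stage 3, are represented by libraries 1 to 3 of the 6 deposited for that stage. These 7 of the 26 libraries of the series were taken because they have the same high median FPKM (fragments mapped to a gene, scaled to its length and to the library's total) over expressed genes, 13.22 to 13.85. Stage 3 libraries 4 to 6 have a median of 7.58 to 8.59. The whole series holds RNA of thymocytes from C57BL/6 mice aged 6 to 8 weeks, as DN1eP precursors (4 libraries), DN1eP-NKT (4) and NKT cells taken from the thymus at stage 1 (5 libraries), at stage 2 (7) and at stage 3 (6). All of them are wild type. DN1eP are precursors sorted as lineage-negative, CD44+, CD25-, CD24low, CD5+, CD27+, Ly108- and CXCR3+ and are labelled negative for the Vα14Jα18 T cell receptor. For DN1eP-NKT they were kept 10 days on a monolayer of OP9 stromal cells that display the Notch ligand Dll-1, with mouse IL-2 and IL-7 at 5 ng/ml each. The product is labelled positive for that receptor. Stage 3 cells were sorted fresh from the thymus as TCRβ+ cells that bind a CD1d dimer loaded with αGalCer and carry CD44 and NK1.1. They were not cultured, so culture, the added cytokines, the OP9 layer and the origin of the cells cannot be told apart in this comparison.

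NKT cells are T cells with a nearly fixed T cell receptor that recognises lipids on CD1d. In the thymus they pass from dividing stage 1 and 2 cells to stage 3 cells, which rest, take on receptors of natural killer (NK) cells under the T-box factor T-bet (Tbx21) and leave the thymus rarely. PLZF, encoded by Zbtb16, is the transcription factor that gives NKT cells their innate-like program. IL-2 acts through a receptor of an alpha (Il2ra), a beta (Il2rb) and a common gamma chain (Il2rg) and through STAT5.

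Of the 7 libraries, 6 were nearer to each other in depth than to DN1eP-NKT library 1. Their relative depth, set to 1 for DN1eP-NKT library 2, ran from 0.439 to 1.07, and the bounds deposited with a gene of 20 to 100 FPKM lay at a median of 15.3% to 21.8% from its value. Stage 3 library 2 stood at 1.07 and the rest of them at 0.439 to 0.489. DN1eP-NKT library 1 was 5.97 times as deep as library 2, with bounds at 7.02%, and its deposited rows number 23700 against 23697 in the others. Its depth was estimated from 3 genes (quartiles 5.968 and 5.975), and those of stage 3 from 4 to 6. Over log2(FPKM + 1) of all genes it correlated with the other DN1eP-NKT libraries at 0.875 to 0.894, against 0.916 to 0.941 among these and 0.925 to 0.941 within stage 3. Where leaving out library 1 changes the call of a gene whose test is given below, both results stand there. The labels do not say whether replicates came from separate mice or cultures, so p-values measure only the spread between these samples.

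The DN1eP-NKT libraries held T cell RNA and, in part, RNA of stroma. Cd3e, a chain of the receptor complex, was at 255, 265, 307 and 314 FPKM in DN1eP-NKT and at 532, 429 and 488 in stage 3. Of 40 fibroblast and stroma genes, 29 were listed at 0 in all 3 stage 3 libraries and 1 in all 4 of DN1eP-NKT. Their summed level was 1326 to 1753 FPKM in DN1eP-NKT libraries 2 to 4 and 563 in library 1, against 485 to 584 in stage 3, where T cell genes such as Thy1 (505, 426 and 440.3) carry the sum. Over the 30 of these genes under 1 FPKM in every stage 3 library, the sum was 522 to 773 FPKM in libraries 2 to 4, 141 in library 1 and 0.527 to 1.35 in stage 3. The 26 stroma genes at 5 FPKM or more stood in library 1 at a median of 13.2% of their mean in libraries 2 to 4. Over 8115 tested genes at that level the median was 84.8% (quartiles 68.5% and 107%). The level in library 1 as a percentage of libraries 2 to 4 is therefore given beside gene groups below, as the median over the members at 5 FPKM or more. How much stroma RNA adds to any one gene was not tested. Other cell types left less: summed levels in DN1eP-NKT were 20.6 to 34.4 FPKM for 20 myeloid and dendritic cell genes, 2.42 to 4.57 for 12 B cell genes and 4.40 to 34.5 for 14 mast cell and basophil genes, the highest of the last in library 1. In bulk RNA, fewer cells of a type and less RNA per cell cannot be told apart.

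Cultured cells had more RNA for cell division, the IL-2 receptor alpha chain, granzymes and sterol synthesis, and less for NK receptors, GIMAP proteins and early response genes. Of 10864 tested genes, which reached 1 FPKM in no fewer than 3 of the 7 libraries, 3482 differed at an adjusted p under 0.05 (limma on log2(FPKM + 1), Benjamini-Hochberg), or 32.1%. Of these, 2145 were higher in DN1eP-NKT (19.7%) and 1337 lower (12.3%). Counts of the gene lists below stand beside these shares. All log2 differences are DN1eP-NKT minus stage 3 on this scale, with ± for the standard error, and they understate the change of genes near 1 FPKM. A gene said to be higher or lower passed this test. The median difference over all tested genes was 0.07. The balance of directions depends on scaling: 61.6% of the calls were higher in DN1eP-NKT, against 53.0% after upper-quartile scaling and 47.1% after quantile normalization. Without DN1eP-NKT library 1, 2824 genes were higher (26.3%) and 1657 lower (15.4%), and 3410 calls were made in the same direction by both fits. The number of lower genes fell to 817 without stage 3 library 1 and to 784 without stage 3 library 3. With stage 3 libraries 4 to 6 in place of 1 to 3 the median over all genes became 0.90, and 579 of 3429 calls turned into calls of the opposite direction.

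**Figure D1:**
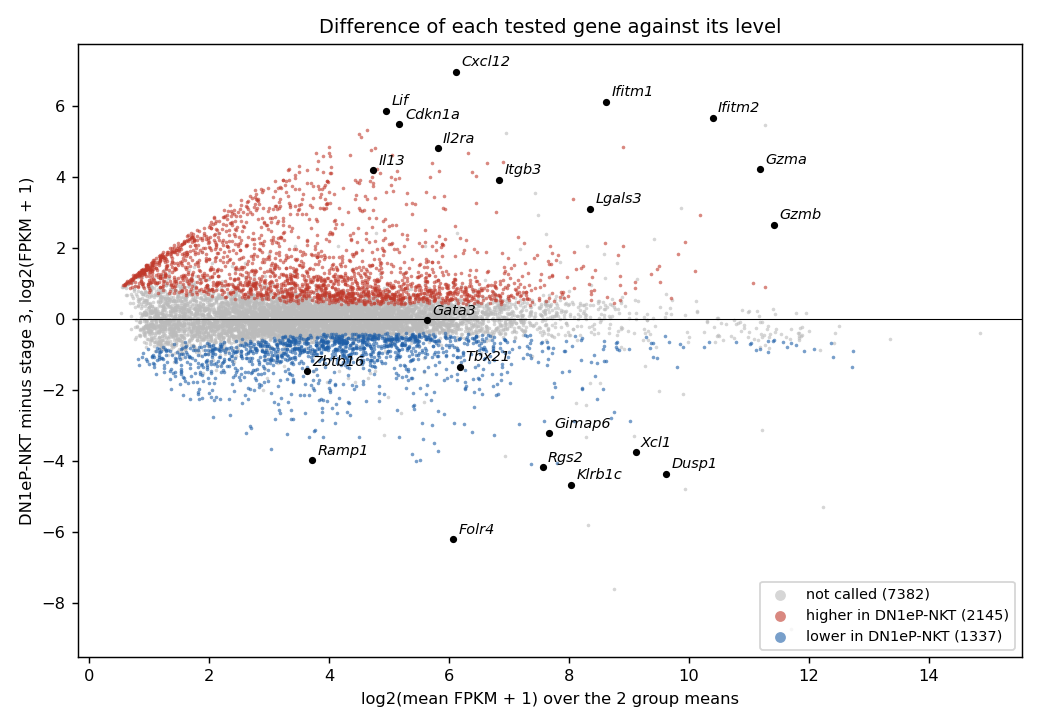
Each point is 1 of 10864 tested genes, with its mean level on the x axis (log2 scale) and its difference between DN1eP-NKT and stage 3 on the y axis (log2 scale). Red and blue points passed the test (2145 higher, 1337 lower). Gata3 lies near 0, Ifitm1, Lif, Il2ra and Cxcl12 lie far above it, and Folr4 and Klrb1c far below.

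**Figure D2:**
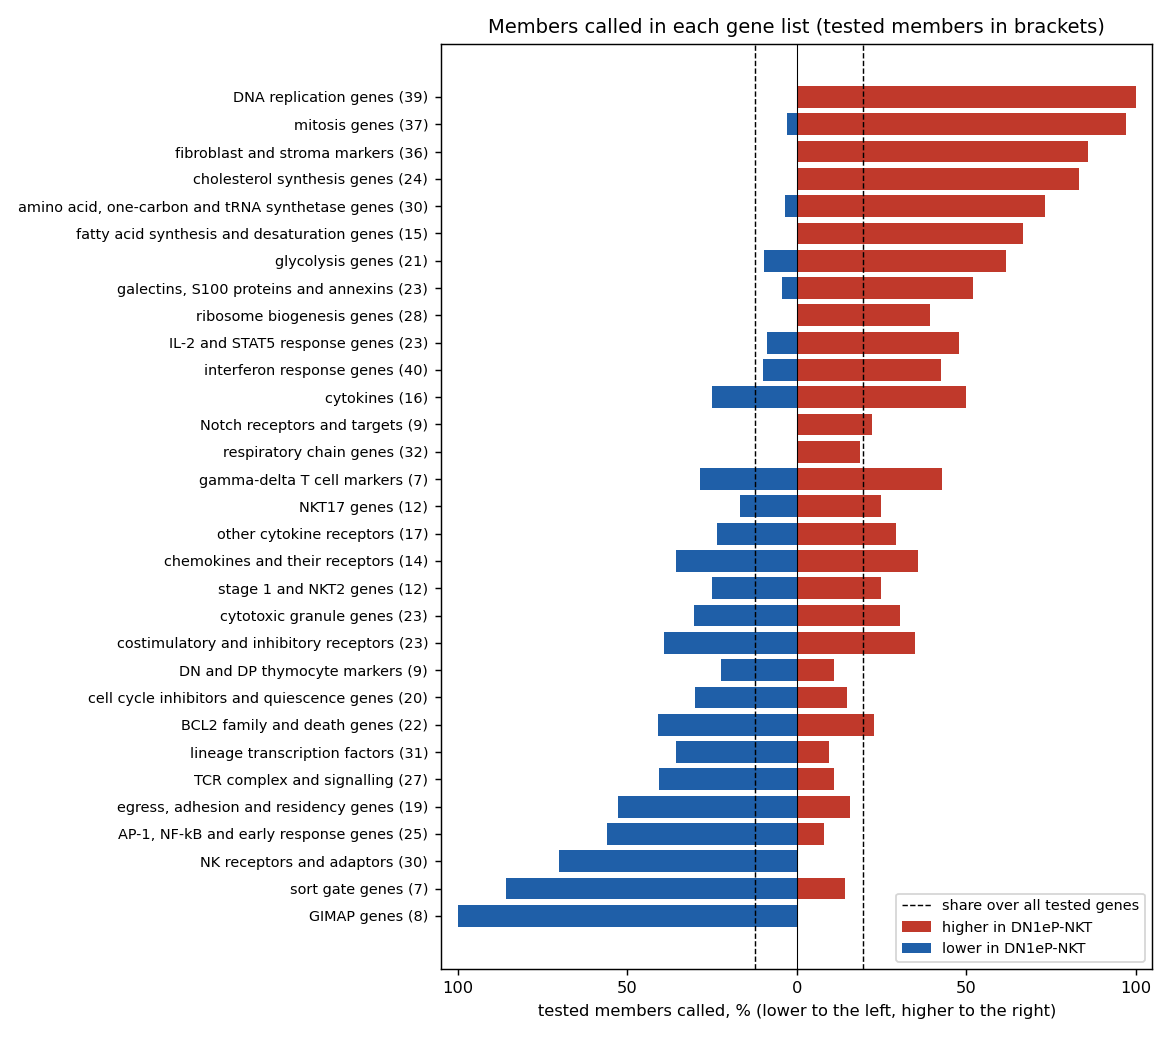
Bars give the percentage of the tested members of each gene list that were called higher (to the right) or lower (to the left) in DN1eP-NKT, for lists with at least 7 tested members, with the share over all tested genes as dashed lines (19.7% and 12.3%). DNA replication and mitosis genes stand at the top, and GIMAP and sort gate genes at the bottom.

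The genes of the sort gates differed, and stage 3 was sorted on some of them. Klrb1c, which encodes NK1.1, was at 56.8, 11.3, 13.1 and 14.04 FPKM in DN1eP-NKT and at 497, 493 and 503 in stage 3, a log2 difference of -4.66 ± 0.51. Every DN1eP-NKT library lay below every stage 3 library, and library 1 was the highest of the 4. Cd44, the other marker of the stage 3 gate, was at 34.6, 52.1, 60.6 and 58.8 FPKM in DN1eP-NKT and at 131, 134 and 145 in stage 3 (-1.42 ± 0.20). Stage 3 cells were taken as CD44+ and NK1.1+, and the part of the gate in these differences was not tested. Stage 3 libraries 4 to 6 held Klrb1c at 563, 453 and 440 FPKM. They held Cd44 at 78.8, 51.96 and 56.8, which overlaps the cultures. Cd5, Cd27 and Cxcr3, for which the precursors had been sorted as positive before culture, were lower, with differences of -2.08, -1.08 and -1.14. Slamf6, which encodes Ly108 and for which they had been sorted as negative, was at 0.329, 0, 0 and 0 FPKM in DN1eP-NKT and 3.73, 2.45 and 5.36 in stage 3.

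T cell receptor genes were present throughout, with the CD3 chains lower in culture. Of 27 tested genes of the receptor complex and its signalling, 3 were higher and 11 lower (6 and 12 without library 1), with a median difference of -0.30 and library 1 at 74.7% of the other cultures. Over all genes 19.7% were higher and 12.3% lower. Cd3g, a signalling chain of the complex, was at 383, 481, 613 and 550.5 FPKM in DN1eP-NKT against 1383, 1108 and 1325 in stage 3 (-1.34 ± 0.20). The other CD3 chains Cd3d and Cd3e were lower as well (-0.84 and -0.76). Sh2d1a, which encodes the SLAM adaptor SAP needed for NKT development, stood at 34.9, 26.2, 30.3 and 30.9 against 76, 75.7 and 78.04 (-1.30 ± 0.14). Rasgrp1, an activator of Ras below the receptor, was higher at 124, 94.5, 103 and 96.3 against 62.5, 47.7 and 52.8 (0.93 ± 0.16). For none of these 5 genes did the groups overlap. The receptor zeta chain Cd247 did not pass (-0.16 ± 0.17). The kinase gene Lck did not pass with library 1 (-0.43 ± 0.19, adjusted p = 0.108) and was lower without it (-0.28, adjusted p = 0.0423). Cd4, the coreceptor that part of mouse NKT cells carry, was at 2.29, 5.71, 6.16 and 4.73 FPKM in DN1eP-NKT and at 32.3, 31.6 and 33.5 in stage 3 (-2.61 ± 0.25). Stage 3 libraries 4 to 6 held Cd4 at 18.98, 2.42 and 19.6 FPKM, so library 5 lay within the range of the cultures.

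Factors that define the NKT lineage were present in DN1eP-NKT, several of them at lower levels. Of 31 tested lineage transcription factors, 3 were higher and 11 lower, with a median of -0.35 and library 1 at 90.8%. The shares over all genes were 19.7% and 12.3%. Zbtb16 was at 6.904, 4.51, 5.07 and 5.42 FPKM in DN1eP-NKT and at 21.8, 12.8 and 17.1 in stage 3 (-1.48 ± 0.21, adjusted p = 0.000444), with no overlap. Tbx21 was at 19.9, 39.8, 49.6 and 57.6 FPKM in DN1eP-NKT and at 118, 83.99 and 103 in stage 3 (-1.35 ± 0.31), lowest in library 1 with 40.5% of libraries 2 to 4. Both directions depend on the stage 3 libraries. Libraries 4 to 6 held Zbtb16 at 3.52, 0.956 and 1.94 and Tbx21 at 16.6, 15.1 and 13.7 FPKM, and with them in place of 1 to 3 the differences became 1.12 and 1.31 beside a median of 0.90 over all genes.

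Gata3, the factor of IL-4 producing cells, was at 43.3, 43.1, 50.5 and 54.03 FPKM in DN1eP-NKT and at 46.3, 42.98 and 58.3 in stage 3, a difference of -0.04 with a 95% interval of -0.39 to 0.32. Tcf7 (0.29 ± 0.17, interval -0.08 to 0.66) and Egr2 (-0.23 ± 0.39, interval -1.09 to 0.63), both needed early in NKT development, did not pass either. Ets1, which NKT cells require, and Ikzf3, which encodes Aiolos, were lower (-1.48 and -1.88). Id3, an inhibitor of E proteins that is high in early NKT cells, was at 39.9, 46.02, 54.01 and 59.9 FPKM against 8.91, 11.4 and 8.01 (2.28 ± 0.18). Its relative Id2 was lower, at 622, 517, 461 and 480.5 against 781, 938 and 777 (-0.68 ± 0.17). The 2 Id genes thus differed in opposite directions, without overlap. Eomes, a T-box factor of NK and memory T cells, was at 54.9, 4.65, 6.27 and 6.16 FPKM against 0.322, 0 and 0.228. Library 1 held 965% of the mean of libraries 2 to 4, and the difference was 3.27 with it and 2.50 without it.

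Most NK receptor genes, which NKT cells gain at stage 3 in the thymus, were lower in the cultured cells but still detected. Of 30 tested receptor and adaptor genes, 21 were lower and 9 did not pass, against 12.3% lower over all genes. Their median was -1.28 (24 lower and 1 higher without library 1). Klrk1, which encodes the activating receptor NKG2D, was at 84.8, 123, 132 and 119 FPKM in DN1eP-NKT and at 296, 277 and 272 in stage 3 (-1.31 ± 0.18). Klrd1, the CD94 chain of NKG2 receptors, was at 226, 203, 224 and 184 FPKM in DN1eP-NKT and at 538, 475 and 484 in stage 3 (-1.25 ± 0.15). In both the highest DN1eP-NKT library stayed below the lowest of stage 3. The inhibitory partner of CD94, Klrc1 (NKG2A), stood at 121, 228, 257 and 197 against 230.0, 212 and 210.4 and overlapped (-0.17 ± 0.24, interval -0.69 to 0.36). Its activating relative Klrc2 was lower (-1.48). Klre1, another lectin-like NK receptor, was even across the cultures, at 39.6, 35.9, 42.2 and 39.7 against 158, 182 and 198 (-2.15 ± 0.14). Klra9, one of the Ly49 receptors for MHC class I, was at 66.04, 145, 142 and 144 FPKM in DN1eP-NKT and at 729, 489 and 517 in stage 3 (-2.26 ± 0.28), and Klra6, Klra10 and Klra3 were lower too (-3.32, -2.92 and -2.11). The Klra and Klrb1 genes have near-identical copies whose reads can be split between them, so single members are uncertain, and so is the split of Klrc1 and Klrc2.

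DN1eP-NKT library 1 differed from the other 3 in part of this group, in both directions, and stood over the 19 members at 5 FPKM or more at a median of 71.4%. Ncr1, the gene of the natural cytotoxicity receptor NKp46, stood at 36.2, 1.17, 3.21 and 4.23 FPKM, with stage 3 at 3.31, 0.544 and 2.38 (adjusted p = 0.402). Tyrobp, the adaptor DAP12 of activating NK receptors, was at 24.8, 7.09, 2.24 and 4.201 against 18.4, 10.4 and 10.4. Klrb1a, a relative of the NK1.1 gene, was at 13.7, 0.7997, 1.26 and 2.37 against 22.8, 26.9 and 34 and Klra10 at 4.88, 22.1, 23.1 and 17.3 against 127, 113 and 113. Library 1 was thus high for the first 3 and low for the last. Without it the difference of Klrb1c was -5.18, and Tyrobp passed the test (-1.40, adjusted p = 0.00674).

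Granule genes differed in both directions. Of 23 tested, 7 were higher, 7 lower and 9 did not pass, with a median of 0.07 and library 1 at 94.4%. The shares over all genes were 19.7% higher and 12.3% lower. Gzma, a tryptase of cytotoxic granules, was at 6449.7, 3986, 3564 and 3645 FPKM in DN1eP-NKT and at 204, 263 and 227 in stage 3 (4.21 ± 0.23, adjusted p = 8.49e-07), or 19.1 times the stage 3 mean. Gzmb, the granzyme that triggers caspases, was at 3939.9, 5388, 4818 and 4632 FPKM in DN1eP-NKT and at 766, 728 and 725 in stage 3 (2.66 ± 0.17), or 6.35 times. For both, the lowest DN1eP-NKT library exceeded the highest of stage 3. Perforin (Prf1), the pore through which granzymes enter, was lower at 25.7, 17.4, 23.2 and 23.8 against 38.8, 38.1 and 39.7 (-0.77 ± 0.16). Nkg7, a granule membrane protein, stood at 556, 644, 799 and 803 against 1321, 1099.8 and 1208 (-0.80 ± 0.19). Serglycin (Srgn), which packs granzymes, stood at 352, 386, 381 and 347 against 632, 660.1 and 674 (-0.84 ± 0.15). Fas ligand (Fasl) and the protease Ctsw were lower as well (-0.84 and -1.22), and Lamp1 and Lamp2, membrane proteins of lysosomes and granules, were higher (0.95 and 1.42).

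**Figure D3:**
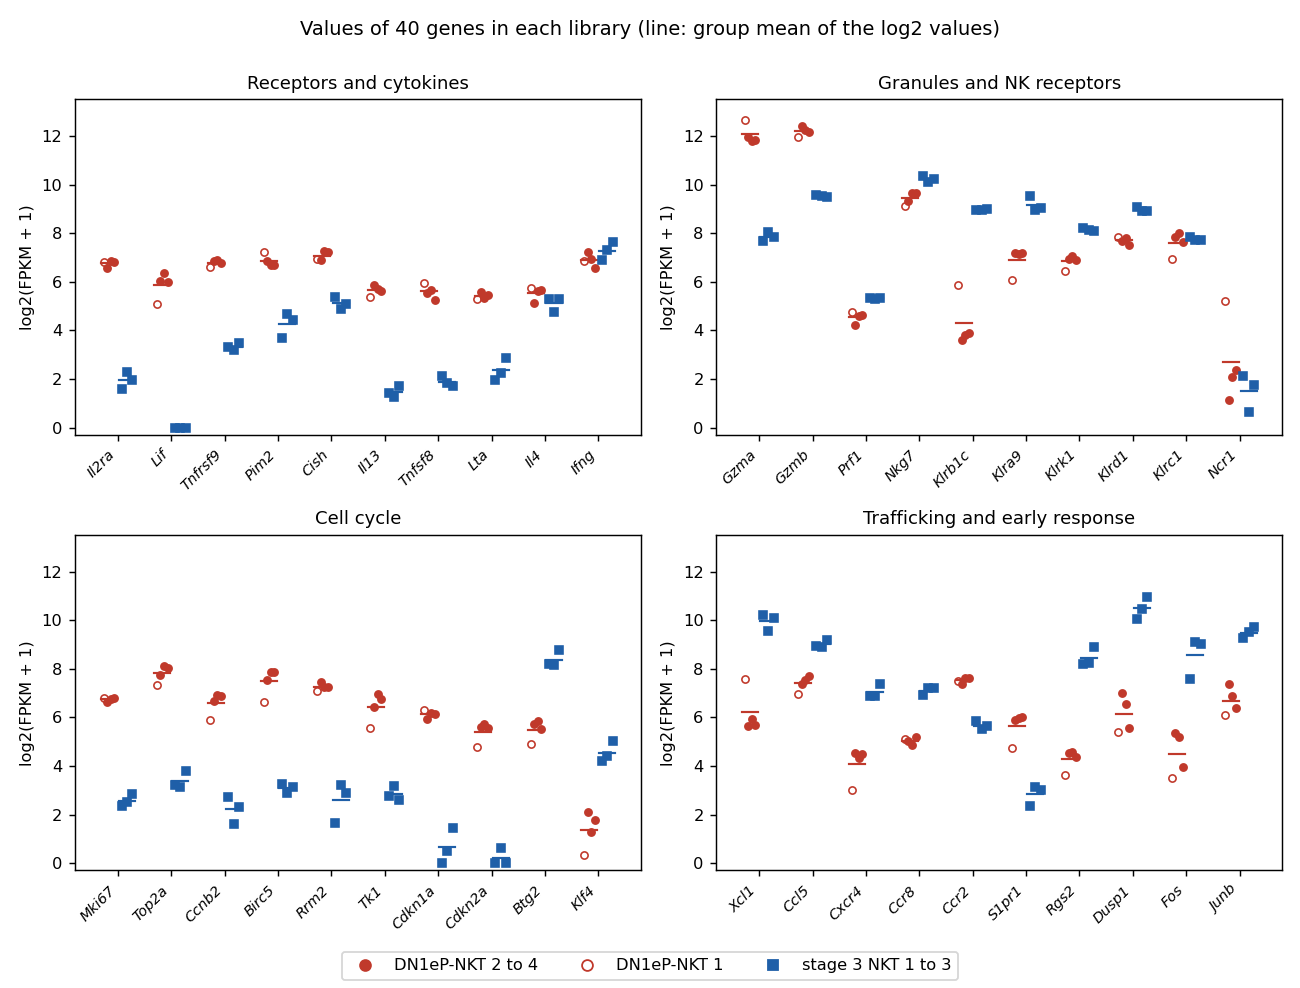
Points give log2(FPKM + 1) of 40 genes in each library, red circles for DN1eP-NKT (open for library 1) and blue squares for stage 3, with a line at the mean of each group. Il2ra, Gzma and Mki67 sit apart in all libraries, Il4, Ifng and Klrc1 overlap, and the open circle leaves the other red points for Klrb1c and Ncr1.

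The cultured cells held more RNA of nearly every cell division gene tested. Of DNA replication genes, 39 of 39 were higher, with a median of 1.94, and of mitosis genes 36 of 37, with a median of 3.76, against 19.7% of all genes. The remaining one, Pttg1, which encodes securin, was lower. Mki67, the proliferation marker Ki-67, was at 109.8, 99.6, 106 and 110.3 FPKM in DN1eP-NKT and at 4.14, 4.79 and 6.15 in stage 3 (4.17 ± 0.15, adjusted p = 2.18e-07). Top2a, the topoisomerase of condensing chromosomes, was at 161, 215, 273 and 263 FPKM in DN1eP-NKT and at 8.32, 7.79 and 13.01 in stage 3 (4.42 ± 0.23). In both, the lowest culture lay above every stage 3 library. The mitotic kinase Aurkb was at 37.8, 53.97, 82.2 and 75.5 FPKM in DN1eP-NKT and at 0.476, 1.95 and 2.57 in stage 3 (4.60 ± 0.34). Another, Plk1, was at 35.1, 51.9, 59.5 and 64.3 FPKM in DN1eP-NKT and at 0.835, 1.199 and 6.001 in stage 3 (4.10 ± 0.44). Cyclin B1 (Ccnb1), which starts mitosis, was at 37.7, 39.8, 41.8 and 33.1 FPKM in DN1eP-NKT and at 0, 0.486 and 1.78 in stage 3 (4.60 ± 0.30). Stage 3 thus held little of these mitotic genes, with single libraries near or at 0. Rrm2, the ribonucleotide reductase subunit that supplies deoxynucleotides, was at 135, 173, 151 and 151 FPKM in DN1eP-NKT and at 2.11, 8.32 and 6.45 in stage 3 (4.67 ± 0.32). The origin licensing genes Mcm5 and Mcm2 differed less (1.94 and 1.23), and so did the clamp Pcna (1.18), which stage 3 held at 217, 178 and 207 FPKM. In library 1 mitosis genes stood at a median of 74.3% of libraries 2 to 4 and replication genes at 72.7%, against 13.2% for stroma genes and 84.8% for all.

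Promoters of some of the mitosis genes that differed most are shown because this group was higher nearly as a whole. Late cell cycle genes are known for the cell cycle homology region (CHR), TTTGAA, near the start site and for CCAAT boxes upstream. Both were searched on both strands in the 250 bases before the first start listed by RefSeq (GRCm38.p6), and hits that share a base were each counted. Of 37 mitosis genes 31 matched, and 41.9% of these held the CHR letters, 80.6% CCAAT and 41.9% both. Over all 27025 genes with a promoter these shares were 16.3%, 34.5% and 5.73%, and over 7757 matched tested genes 10.4%, 37.3% and 4.14%. The 33 matched DNA replication genes held CHR in 12.1% and CCAAT in 57.6%. The 150 bases before the start follow for 4 matched mitosis genes among those with the largest differences. Aurkb, with a larger difference than these (4.604 against 4.602 for Ccnb1), is not printed. Sequences run 5′ to 3′, with every hit in capitals, as these letters or as their reverse complement. They lie at chr13:100786487-100786636 (minus strand, Ccnb1), chr11:99024190-99024339 (minus, Top2a), chr11:117849087-117849236 (plus, Birc5) and chr9:70421555-70421704 (minus, Ccnb2).
Ccnb1: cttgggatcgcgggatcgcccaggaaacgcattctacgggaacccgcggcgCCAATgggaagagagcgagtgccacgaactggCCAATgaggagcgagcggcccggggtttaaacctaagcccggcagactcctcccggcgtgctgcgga
Top2a: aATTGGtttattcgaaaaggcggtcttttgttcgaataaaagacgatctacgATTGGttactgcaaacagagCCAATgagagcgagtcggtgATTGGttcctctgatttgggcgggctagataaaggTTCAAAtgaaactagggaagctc
Birc5: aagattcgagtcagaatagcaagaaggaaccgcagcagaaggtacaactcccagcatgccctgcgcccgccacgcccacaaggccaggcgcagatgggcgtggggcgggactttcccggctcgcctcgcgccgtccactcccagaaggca
Ccnb2: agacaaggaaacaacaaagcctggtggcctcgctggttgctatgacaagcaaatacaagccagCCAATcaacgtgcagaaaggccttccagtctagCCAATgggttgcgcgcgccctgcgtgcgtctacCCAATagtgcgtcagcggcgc
Top2a held 4 CCAAT boxes and 1 CHR, Ccnb2 3 CCAAT boxes and Ccnb1 2, and these letters are not in the window of Birc5. A match is no evidence of a bound site. Birc5, an inhibitor of apoptosis that also serves in the chromosomal passenger complex, was at 98.97, 187, 235 and 232 FPKM in DN1eP-NKT and at 8.69, 6.36 and 7.8 in stage 3. Cyclin B2 (Ccnb2) was at 58.6, 99.8, 119.8 and 118 FPKM in DN1eP-NKT and at 5.62, 2.05 and 3.93 in stage 3, and library 1 was the lowest culture for both.

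Single inhibitors of the cell cycle went both ways. Cdkn1a, which encodes the inhibitor p21, was at 77.6, 59.6, 71.5 and 69.4 FPKM against 0, 0.401 and 1.76 (5.48 ± 0.29). Cdkn2a, the locus of p16 and p19Arf that is often high in cultured cells, was at 26.6, 47.2, 52.01 and 46.2 against 0, 0.53 and 0 (5.21 ± 0.26). Both stood near 0 in stage 3. Cdkn2c (p18) was higher (2.50), and Cdkn1b (p27) did not pass with library 1 (-0.34 ± 0.17) but was lower without it (-0.46, adjusted p = 0.0169). The antiproliferative genes Btg2, Btg1 and Tob1 were lower (-2.87, -1.80 and -1.58). Klf4, a brake on T cell division, was at 0.281, 3.36, 1.42 and 2.41 FPKM against 17.6, 20.01 and 31.7 (-3.17 ± 0.38), lowest in library 1. Of 20 tested genes of cell cycle inhibition and quiescence, 3 were higher and 6 lower, with a median of -0.26 and library 1 at 98.7%. The higher count is not above the share over all genes (19.7% higher, 12.3% lower).

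Response genes of IL-2 and STAT5, the pathway of a cytokine added to the culture, were higher in part. Of 23 such genes, 11 were higher and 2 lower, against 19.7% and 12.3% of all genes, with a median of 0.56. Il2ra, the alpha chain CD25, was at 111, 92.7, 113 and 112 FPKM in DN1eP-NKT and at 2.04, 3.92 and 2.84 in stage 3 (4.80 ± 0.18, adjusted p = 2.18e-07), or 36.5 times the stage 3 mean. The precursors had been sorted as CD25-. The beta chain Il2rb was lower, at 469.7, 529.7, 512 and 511 against 740.1, 864 and 842 (-0.69 ± 0.15), and became 0.05 against stage 3 libraries 4 to 6. The common gamma chain Il2rg did not pass (0.03, interval -0.33 to 0.38). Lif, a cytokine of the IL-6 family, was at 32.7, 64.7, 81.3 and 61.8 FPKM and listed at 0 in stage 3 libraries 1 to 3. Library 1 held 47.2% of libraries 2 to 4. Tnfrsf9 (4-1BB), a costimulator induced by activation, was at 95.6, 116, 117 and 109 FPKM in DN1eP-NKT and at 8.83, 8.24 and 10.1 in stage 3 (3.46 ± 0.14), and its relative Tnfrsf4 (OX40) was higher too (2.85). The feedback inhibitors Cish, Socs1 and Socs2 were higher (1.97, 1.25 and 1.08). The survival kinase gene Pim2 was at 148, 115, 101 and 103 FPKM in DN1eP-NKT and at 11.8, 24.2 and 20.4 in stage 3 (2.61 ± 0.23), whereas Pim1 (0.19 ± 0.22) and Bcl2 (0.29 ± 0.14) did not pass. Over the list, library 1 stood at a median of 91.5% of libraries 2 to 4.

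Of 16 tested cytokine genes, 8 were higher and 4 lower, against 19.7% and 12.3% of all genes. Their median was 0.45, with library 1 at 90.1%. The 2 cytokines by which NKT cells are best known did not pass. Ifng was at 114, 148, 123 and 93.2 FPKM in DN1eP-NKT and at 117, 157 and 197 in stage 3 (-0.38 ± 0.21, interval -0.85 to 0.09). Il4 was at 51.9, 34.4, 48.6 and 50.1 FPKM in DN1eP-NKT and at 38, 26.2 and 38.3 in stage 3 (0.43 ± 0.19, adjusted p = 0.118). Both overlapped between the groups. Il13, a cytokine of type 2 responses, was at 40.8, 57.1, 51.7 and 47.8 FPKM in DN1eP-NKT and at 1.67, 1.37 and 2.25 in stage 3 (4.19 ± 0.18). Lymphotoxin alpha (Lta) and CD30 ligand (Tnfsf8), members of the TNF family, were higher (3.06 ± 0.21 and 3.73 ± 0.19), and so was the osteoclast factor RANKL (Tnfsf11, 2.29 ± 0.21). Il10, an anti-inflammatory cytokine, was at 24.8, 5.99, 10.3 and 5.52 FPKM, highest in library 1. Il24, of the same cytokine family, was at 35.5, 24.5, 26.6 and 15 FPKM. Ccl1, the ligand of CCR8, was at 33.95, 23.2, 48.4 and 15.2 FPKM. These 3 were listed at 0 in stage 3 libraries 1 to 3, whereas libraries 4 to 6 held Ccl1 at 4.59, 3.56 and 5.07 FPKM. CD40 ligand (Cd40lg), which licenses dendritic cells, and Tnfsf14 (LIGHT) were lower (-1.60 and -1.23), and Tnfsf14 turned to 0.71 against stage 3 libraries 4 to 6.

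Of 17 other cytokine receptor genes, 5 were higher and 4 lower, with a median of -0.21 and library 1 at 108%. Over all genes the shares were 19.7% higher and 12.3% lower. Il4ra and Il12rb1, chains of the IL-4 and IL-12 receptors, were higher (1.51 and 1.69). Il7r, the receptor for the IL-7 that was also added, was lower at 167, 109.8, 109.8 and 105.2 against 402, 513 and 487 (-1.94 ± 0.20), highest of the cultures in library 1.

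Chemokines and genes of migration differed in both directions. Of 14 chemokine and receptor genes, 5 were higher and 5 lower, and of 19 egress, adhesion and residency genes 3 and 10. The shares over all genes were 19.7% and 12.3%. Library 1 stood at 99.1% for the former and 60.6% for the latter. Xcl1, the chemokine that draws cross-presenting dendritic cells, was at 191, 49.2, 59.7 and 51.04 FPKM in DN1eP-NKT and at 1199, 755 and 1095 in stage 3 (-3.75 ± 0.45, and -4.20 without library 1). Ccl5, a chemokine of effector cells, was at 123, 167, 183 and 209 FPKM in DN1eP-NKT and at 493, 479.7 and 573 in stage 3 (-1.61 ± 0.20). Both chemokines that stage 3 cells held at high levels were thus lower, without overlap. Of the receptors, Cxcr4, which binds Cxcl12 of stroma, and Ccr8 were lower (-2.95 and -2.06). Ccr2, a receptor for inflammatory chemokines, was at 182, 163, 194 and 194 against 55.96, 44.9 and 49.1 (1.86 ± 0.15). The residency receptor Cxcr6 did not pass with library 1 (0.40 ± 0.16, adjusted p = 0.0891) and was higher without it (0.44, adjusted p = 0.0141). Against stage 3 libraries 4 to 6 its difference was -0.99.

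S1pr1, the receptor by which T cells leave the thymus, was at 25.6, 58.02, 62.4 and 63.5 FPKM in DN1eP-NKT and at 4.14, 7.88 and 7.17 in stage 3 (2.81 ± 0.32), with library 1 at 41.8% of the others. Klf2, a factor that drives S1pr1, overlapped at 18.4, 56.6, 50.7 and 65.1 against 31.1, 117 and 118 (adjusted p = 0.375). The G protein regulators Rgs1 and Rgs2, of which Rgs1 dampens chemokine receptors, were lower (-2.86 and -4.17). Integrin alpha 4 (Itga4) and alpha 1 (Itga1), the latter a residency marker, were lower (-2.82 and -1.58), whereas integrin beta 3 (Itgb3) was at 212, 179, 233 and 229.8 FPKM in DN1eP-NKT and at 10.2, 15.2 and 14.4 in stage 3 (3.92 ± 0.17). Against stage 3 libraries 4 to 6, the median of the egress, adhesion and residency genes turned from -0.80 to 1.09, Cxcr4 to 0.27 and Itga1 to 0.38, beside 0.90 over all genes.

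Early response genes, transcribed within minutes of a stimulus or of handling, were lower in DN1eP-NKT. Of 25 tested AP-1, NF-κB and early response genes, 14 were lower and 2 higher, against 12.3% and 19.7% of all genes. Their median was -1.39, with library 1 at 55.7%. Dusp1, a phosphatase that shuts down MAP kinases, was at 40.7, 127, 93.6 and 46.8 FPKM in DN1eP-NKT and at 1053, 1402 and 2012 in stage 3 (-4.36 ± 0.40). Fos, an AP-1 subunit, was at 10.4, 39.6, 35.5 and 14.5 against 189, 545 and 515 (-4.06 ± 0.58). Jun, its partner, was at 3.81, 12.5, 7.59 and 4.84 against 67.4, 104 and 138 (-3.72 ± 0.36). In these 3 the groups did not overlap, and library 1 was the lowest culture. Tnfaip3 (A20), an inhibitor of NF-κB signalling, was at 13.52, 44.95, 14.5 and 8.85 FPKM in DN1eP-NKT and at 295, 220.1 and 414 in stage 3 (-4.07 ± 0.50). Egr1 and Nr4a1, which also answer to the T cell receptor, overlapped and did not pass (1.29 ± 0.48 and -1.67 ± 0.64), but Egr1 was higher without library 1 (1.64, adjusted p = 0.0117).

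These genes also differed among stage 3 libraries. Fos stood at 489, 15.9 and 388 and Junb, another AP-1 subunit, at 12.9, 3.86 and 11.4 FPKM in libraries 4 to 6, where Junb in libraries 1 to 3 was at 614, 722 and 836. With libraries 4 to 6 as the stage 3 group the median of the list became 1.07, with Jun at 0.98 and Junb at 3.46, beside 0.90 over all genes. The direction of the list thus rests on stage 3 libraries 1 to 3. The part of cell handling was not tested.

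All 8 tested GIMAP genes, small GTPases of resting lymphocytes that sustain T cell survival, were lower, against 12.3% of all genes. Their median was -2.11, with library 1 at 65.6%. Gimap6 was at 28.02, 49.7, 36.8 and 41.6 FPKM in DN1eP-NKT and at 408, 353 and 330.2 in stage 3 (-3.21 ± 0.20). Gimap4 was at 85.5, 149, 132 and 117 FPKM in DN1eP-NKT and at 843, 679 and 684 in stage 3 (-2.62 ± 0.21). The cultures held these 2 at well under the stage 3 level in each library, though near-identical family members can share reads. Gimap1, of the same family, turned to 1.36 against stage 3 libraries 4 to 6 and to 0.18 against all 6.

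Of 22 tested genes of the BCL2 family and of death pathways, 5 were higher and 9 lower, with a median of -0.27 and library 1 at 92.2%. Over all genes 19.7% were higher and 12.3% lower, so the higher count is near that share. The pro-apoptotic effector Bax was at 200.4, 212, 265 and 238 FPKM against 69.03, 67.5 and 91.3 (1.58 ± 0.17), and its relative Bak1 was higher too (1.24). The protective A1 genes Bcl2a1b and Bcl2a1d were lower (-2.97 and -3.18), but they are near-identical copies and their split is uncertain.

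Some of the lowest genes belong to no large group. Folr4 (now Izumo1r), a folate receptor relative of T cells, was at 2.17, 0.354, 0 and 1.47 FPKM against 131, 126 and 137 (-6.20 ± 0.35). Ramp1, a subunit of the receptor for the neuropeptide CGRP, was at 0.3404, 0.625, 1.04 and 0.324 FPKM in DN1eP-NKT and at 24.6, 20.5 and 26.2 in stage 3 (-3.98 ± 0.22). Itm2a, a membrane protein of developing T cells, was at 4.56, 5.39, 2.83 and 3.73 against 59.6, 99.98 and 82.96 (-3.99 ± 0.22). Spry2, an inhibitor of growth factor signalling, was nearly even within each group, at 5.22, 4.67, 3.87 and 4.44 against 74.01, 92.4 and 89.6 (-3.96 ± 0.16). Among higher genes, Adam8, a membrane protease of activated leukocytes, was at 76.8, 39.6, 46.9 and 42.98 FPKM in DN1eP-NKT and at 1.47, 0.847 and 0.265 in stage 3 (4.82 ± 0.28), highest in library 1.

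Of 23 costimulatory and inhibitory receptor genes, 8 were higher and 9 lower, with a median of -0.37 and library 1 at 91.2%. The shares over all genes were 19.7% and 12.3%. Havcr2 (TIM-3), an inhibitory receptor, was at 15.01, 10.4, 13.2 and 9.07 against 0.381, 0.318 and 0.327 (3.24 ± 0.22). Cd200r1 and Lair1, other inhibitory receptors, were higher too (3.13 and 2.38). Pdcd1 (PD-1) was lower, at 5.05, 5.52, 6.56 and 5.29 against 19.8, 20.8 and 21.7 (-1.73 ± 0.16), and so was Cd6 (-2.06), a modulator of the T cell receptor. Inhibitory receptors thus differed in both directions.

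Genes of sterol synthesis were higher almost throughout. Of 24 tested, 20 were higher and 4 did not pass, against 19.7% higher over all genes, with a median of 1.88 (23 higher without library 1). Sqle, squalene epoxidase, was at 24.3, 45.7, 50.9 and 46.6 FPKM in DN1eP-NKT and at 1.31, 1.08 and 3.24 in stage 3 (3.92 ± 0.30). Fdps, which makes farnesyl diphosphate, was at 87.9, 174, 184 and 187 FPKM in DN1eP-NKT and at 14.4, 13.48 and 16.6 in stage 3 (3.27 ± 0.25). The cultures exceeded stage 3 in each library, and library 1 was the lowest of the 4 for both genes. Hmgcs1, which encodes an early enzyme of the pathway, was listed at 0 in library 1 and stood at 37.03 to 57.8 in libraries 2 to 4, against 4.88, 8.12 and 4.38 in stage 3. It is 1 of 4 tested genes listed at 0 there and at 10 FPKM or more in each of libraries 2 to 4. The 0 goes with the version of the deposited file: Hmgcs1 is listed at 0 in 9 of the 10 libraries of the series with 23700 rows and in 0 of the other 16. The value of library 1 is therefore not read as a level, and the fit without it gave 2.78 (adjusted p = 5.80e-06, and 0.564 with it). Over the list library 1 stood at a median of 64.4% of libraries 2 to 4.

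Of 15 tested fatty acid genes, 10 were higher and 5 did not pass, against 19.7% higher over all genes. Their median was 0.83, with library 1 at 74.001%. The desaturase gene Fads2 was at 4.24, 19.1, 10.5 and 17.5 FPKM, lowest in library 1, and listed at 0 in stage 3 libraries 1 to 3. Scd2, another desaturase, was higher as well (1.63 ± 0.14).

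Glucose and amino acid pathways were higher in part. Of 21 glycolysis genes, 13 were higher and 2 lower, against 19.7% and 12.3% of all genes, with a median of 0.89. Gapdh was at 786, 1679.7, 1979.9 and 1948 FPKM in DN1eP-NKT and at 647, 494 and 634 in stage 3 (1.35 ± 0.31). Ldha, which makes lactate, was at 506, 934, 1203 and 1132 FPKM in DN1eP-NKT and at 401, 334 and 392.1 in stage 3 (1.26 ± 0.28). In both, library 1 lay between stage 3 and the other cultures. The lactate carrier Slc16a3 was at 5.48, 25.1, 39.2 and 37.7 against 3.44, 1.57 and 5.27, so library 1 lay close to stage 3 (2.45 with it, 3.05 without). The glucose transporters differed in direction, with Slc2a1 higher (0.84) and Slc2a3 lower (-1.20). Over the list library 1 held a median of 63.5% of libraries 2 to 4.

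Of 30 tested genes of amino acid supply, one-carbon metabolism and tRNA charging, 22 were higher and 1 lower, with a median of 0.78 and library 1 at 84.7%. Mthfd2, the mitochondrial folate enzyme of dividing cells, was at 44.8, 69.96, 65.9 and 76.2 FPKM in DN1eP-NKT and at 12.97, 13.8 and 10.8 in stage 3 (2.25 ± 0.19). The amino acid transporter Slc7a5 was at 41.4, 59.5, 51.6 and 60.6 FPKM in DN1eP-NKT and at 12.4, 12.7 and 12.9 in stage 3 (1.97 ± 0.16). Nuclear genes of the respiratory chain were higher in 6 of 32 cases and the rest did not pass, a share near the 19.7% over all genes (19 higher without library 1, where the background was 26.3%). Library 1 stood at 67.8% for them. Ribosome biogenesis genes were higher in 11 of 28 cases, and the rest did not pass (18 higher without library 1), with library 1 at 80.6%.

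Of 40 interferon response genes, 17 were higher and 4 lower, against 19.7% and 12.3% of all genes, so the lower count is not above its share. Their median was 0.60 and the highest difference 2.22. The IFITM genes, membrane proteins that block virus entry, are not on that list and stood out in level. Ifitm1 was at 687, 673, 891 and 849.5 FPKM in DN1eP-NKT and at 15.9, 13.1 and 4.77 in stage 3 (6.12 ± 0.32). Ifitm2 was at 1115, 2737, 3152 and 3559 FPKM in DN1eP-NKT and at 48.3, 45.3 and 46.1 in stage 3 (5.67 ± 0.35). Ifitm3 was at 382, 959, 1153 and 1218 FPKM in DN1eP-NKT and at 24.4, 27.8 and 33.8 in stage 3 (4.85 ± 0.36). Library 1 held 85.4% of libraries 2 to 4 for Ifitm1, but 35.4% and 34.4% for Ifitm2 and Ifitm3. The 3 are close relatives, so their reads may be shared. The GTPase gene Gbp6 was at 160.2, 111, 119 and 119 FPKM in DN1eP-NKT and at 24.9, 25.6 and 28.4 in stage 3 (2.22 ± 0.16). Ly6a, which encodes Sca-1, was at 525, 793, 871 and 903 FPKM in DN1eP-NKT and at 161, 223 and 166 in stage 3 (2.06 ± 0.22). Ifit3 and Isg20, classical targets of type I interferon, were lower (-0.97 and -0.96). Over the list library 1 stood at a median of 65.5% of libraries 2 to 4.

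Of 23 tested galectins, S100 proteins, annexins and related genes, 12 were higher and 1 lower, against 19.7% and 12.3% of all genes. Their median was 0.53, with library 1 at 65.99%. Lgals3, galectin 3, was at 683, 588, 528 and 548 FPKM in DN1eP-NKT and at 59.7, 66.5 and 76.1 in stage 3 (3.10 ± 0.16), with library 1 the highest of the 4. Lgals1, galectin 1, was at 1275, 2142, 2384 and 2456 FPKM in DN1eP-NKT and at 270.3, 265 and 252 in stage 3 (2.93 ± 0.23). S100a4, a calcium-binding protein of motile cells, was at 1398, 1672, 1712 and 1621 FPKM in DN1eP-NKT and at 337, 408 and 333 in stage 3 (2.16 ± 0.17). All 3 were apart from stage 3 in each library. Vimentin (Vim), an intermediate filament that stroma also expresses, was at 927, 1504, 1625 and 1562 FPKM in DN1eP-NKT and at 428, 358 and 376 in stage 3 (1.83 ± 0.22). Library 1 held 54.8% of libraries 2 to 4 for Lgals1, 59.3% for Vim and 83.8% for S100a4.

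Stroma genes were higher in 31 of 36 tested cases and the rest did not pass, with a median of 2.24, against 19.7% higher over all genes. Cxcl12, the stromal chemokine that binds CXCR4, was at 53.5, 125, 179 and 191 FPKM and listed at 0 in stage 3 libraries 1 to 3. Fibronectin (Fn1) was at 6.86, 45.7, 63.6 and 60.9 FPKM and likewise listed at 0 in stage 3. Collagen Col1a1 was at 2.43, 28.6, 48.97 and 40.8 FPKM, with stage 3 at 0.557, 0.0762 and 0.167. Library 1 held 32.4%, 12.1% and 6.16% of libraries 2 to 4 for these 3, in that order. Dll1, the ligand displayed by the OP9 layer, was at 0.647, 6.94, 8.78 and 8.49 FPKM, with library 1 at 8.02%. Osteopontin (Spp1), made by activated T cells and by stroma, was at 7.06, 25.9, 39.2 and 48.04, with library 1 at 18.7%. Igfbp4, although on the list, is no marker of stroma alone here, since the 2 stage 1 libraries of the same set held it at 249 and 468 FPKM.

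Of 9 tested Notch receptors and targets, Dtx1 and Il2ra were higher and the others did not pass, with library 1 at 88.7%. This count is near the 19.7% higher over all genes. The Notch target Dtx1 was at 26.1, 89.3, 91.9 and 97.9 FPKM in DN1eP-NKT and at 20.9, 14.2 and 12.6 in stage 3 (2.06 ± 0.46, and 2.50 without library 1). Library 1, at 28.04% of the others, was thus the lowest for Dtx1 as for the ligand Dll1. A part of stroma RNA in Dtx1 was not tested.

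**Figure D4:**
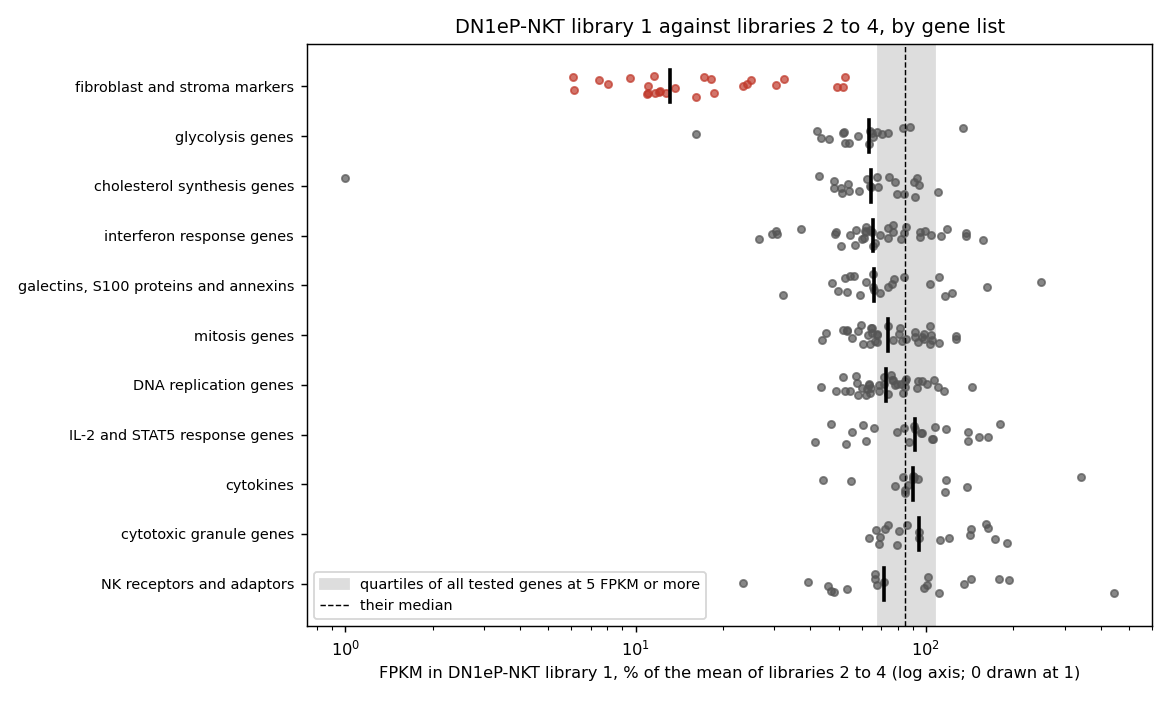
Each point is a gene at 5 FPKM or more in the mean of DN1eP-NKT libraries 2 to 4, placed by its FPKM in library 1 as a percentage of that mean (log axis), with a bar at the median of its list. Stroma genes (red) have a median of 13.2%, below the grey band that spans the quartiles of all tested genes (68.5% to 107%), and the other lists shown have medians from 63.5% to 94.4%. The sterol gene listed at 0 in library 1, Hmgcs1, is drawn at 1%.

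The other thymic stages of the same library set, 2 libraries of stage 1 and 4 of stage 2, place these levels, as a description with no test. Of the 2145 genes called higher, 748 lay above each of the 9 thymic libraries of the set in all DN1eP-NKT libraries. Of the 1337 called lower, 399 lay below each of them. Over all tested genes the share of the former was 748 of 10864. Sterol synthesis genes gave 19 of 24, galectin, S100 and annexin genes 11 of 23 and IL-2 and STAT5 response genes 9 of 23. Mitosis genes gave 8 of 37 and replication genes 2 of 39, the last near the share over all tested genes. Mki67 was at 53.98 and 74.3 FPKM in stage 1 and 46.4 to 68.7 in stage 2, so that stage 3 alone held little of it. Il13 was at 55.3 and 104 in stage 1 and 25.4 to 52.9 in stage 2, which overlaps the cultured 40.8 to 57.1. Tnfsf11 was at 32.9 and 25.8 in stage 1 and 24.1 to 29.9 in stage 2, above the cultured 11.6 to 17.1. Il2ra was at 0.205 and 0.763 in stage 1 and 0.911 to 2.73 in stage 2. Cdkn1a was at 0.509 and 0.472 in stage 1 and 0 to 1.65 in stage 2. Neither thymic stage came near the cultured levels of these last 2 genes.

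No called NK receptor gene lay below all 9 thymic libraries. This carries little, because several were near 0 in stage 1 (Klre1 0 and 0, Klra9 0.784 and 1.42 FPKM), where no lower level can be seen. Klrk1 was at 2.45 and 2.95 FPKM in stage 1 and 3.67 to 5.44 in stage 2. Klrd1 was at 5.83 and 8.52 in stage 1 and 8.49 to 29.3 in stage 2. DN1eP-NKT, at 84.8 to 132 and 184 to 226, thus stood between stage 2 and stage 3 for both. So it did for Klre1 and Klra9, but not for every member. Klra3, at 19.2 to 45.4 in DN1eP-NKT, overlapped its 17.95 to 43.2 in stage 2. Klrb1c, at 15.8 to 48.6 in stage 2, was below that in DN1eP-NKT libraries 2 to 4 (11.3 to 14.04) and above it in library 1 (56.8). Id3 was at 202 and 260.4 in stage 1, above its 39.9 to 59.9 in DN1eP-NKT. Ccr7, a homing receptor to lymph nodes, was at 57.8 and 106 in stage 1 and 2.58 to 4.65 in DN1eP-NKT. Folr4 was at 194 and 323 in stage 1, so that DN1eP-NKT lay below the stage 1 and stage 3 levels alike. Zbtb16, at 4.51 to 6.904 in DN1eP-NKT, was at 80.7 and 113 in stage 1 and 47.1 to 75.95 in stage 2. The cultures thus lay below all 9 thymic libraries of the set for it.

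**Figure D5:**
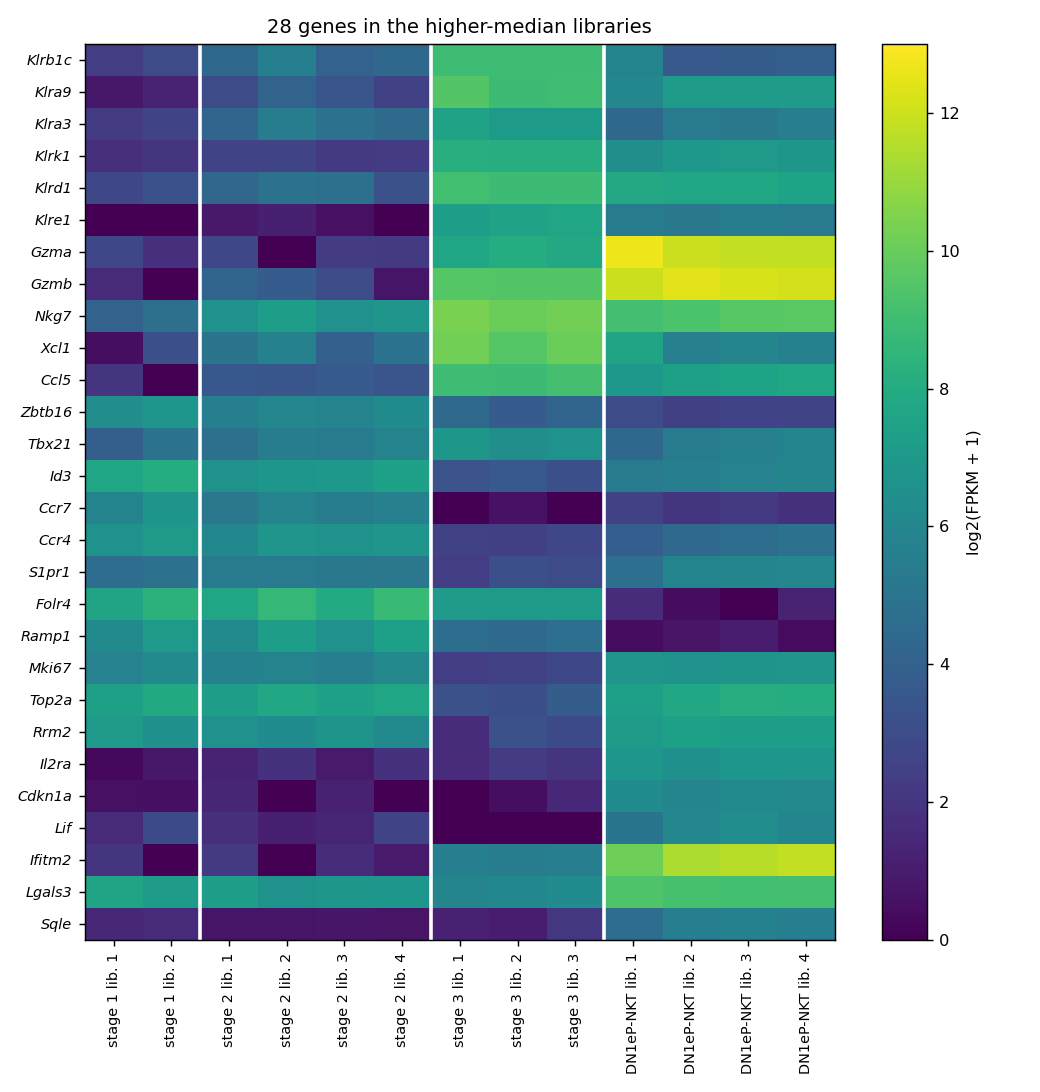
Colours give log2(FPKM + 1) of 28 genes (rows) in the 13 libraries of the higher-median set (columns), 2 of stage 1, 4 of stage 2, 3 of stage 3 and 4 of DN1eP-NKT. Klrk1 and Klrd1 are brightest in stage 3 and intermediate in DN1eP-NKT, Mki67, Top2a and Rrm2 are dark in stage 3 alone, and Il2ra, Cdkn1a, Ifitm2 and Sqle are bright in DN1eP-NKT.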

How the data were processed

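RNA-seq of thymocyte populations was deposited as FPKM per gene and library, which the authors made by aligning reads to mm9 with TopHat2 2.0.6 and estimating FPKM with Cufflinks 2.1.1, per the submitters' processing notes. Read counts were not used. Libraries were made with either of 2 kits, per the labels' protocols, and which library had which, and whether strand was kept, is not stated, so antisense or overlapping genes cannot be told apart. FPKM was summed per gene symbol, and log2(FPKM + 1) was compared with limma 3.58.1 in R 4.3.3 (linear model, trend and robust options, statmod 1.5.0, two-sided), over genes that reached 1 FPKM in no fewer than 3 of the 7 libraries, with Benjamini-Hochberg adjustment over all of them at 0.05. FPKM is relative to each library's total, so RNA of another cell type lowers the other values. The fit was tested on simulated data. Libraries were put in the higher set at a median FPKM of expressed genes above 11. Gene lists (36) are described by counts and medians, with no set test. The members and lists were chosen with earlier results of these data known. The naming rule took, per list, up to 4 called members with the largest differences at 5 FPKM or more, the 15 largest differences each way among called, non-overlapping genes at 10 FPKM or more, the sort gate genes and Zbtb16, Tbx21, Gata3, Egr2 and Tcf7. It gave 132 genes, and 114 of 228 genes considered lie outside it and were chosen for their roles after their values were seen. Same-numbered libraries were not shown to be pairs. Alternatives were another pseudocount (0.1), other filters (none, 5 FPKM), 2 other scalings, other stage 3 libraries, all 26 libraries, a replicate block, array weights, a test against a 2-fold change and leaving out each library. Figures were drawn with matplotlib 3.10.9.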

Additional observations from a re-analysis of the deposited data

Results flagged for a closer look

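For 228 genes, a DN1eP-NKT library was marked where its gap to the nearest of the other 3 exceeded Dixon's 95% critical share of the range of the 4, which chance gives in about 1 of 20 genes. This held for 24 genes, 19 of them in library 1. Part of the genes were chosen after their values were seen, so the count cannot be set against that rate. Library 1 was high in 12: Klrb1c (56.8 FPKM), Ncr1 (36.2), Klrb1a (13.7) and Cd160 (32.01) among NK receptors, Eomes (54.9), Xcl1 (191), Gzma (6450.0), Lamp2 (53.4), Il7r (167), Cd27 (58.1), Slamf6 (0.329) and Gbp6 (160.2). Slamf6, listed at 0 in the other 3, would be marked at any level above 0, so its mark says nothing. It was low in 7: Lck (212), Klra9 (66.04), S1pr1 (25.6), Itga1 (4.21), Fdps (87.9), the membrane protein gene Emp1 (19.8) and Dtx1 (26.1). Library 2 was low for Il2ra (92.7) and high for Tnfaip3 (44.95) and Nr4a1 (34.1), and library 4 was low for Egr2 (0.826) and high for Tnf (35.5). Stage 3, with 3 libraries, was not examined in this way.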

How the results depend on the processing

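Limits: 1 culture library is far deeper than the rest and holds less stroma RNA, stage 3 is 3 libraries, and depth is known only relatively, so genes near 1 FPKM are weakly measured. Of 197 called genes considered for the text, 113 kept their call under every alternative and 150 under all but the test against a 2-fold change.

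The number of genes was 2145 higher and 1337 lower. Leaving out 1 library at a time gave 1552 to 2824 higher and 784 to 1657 lower. A test against a 2-fold difference gave 436 higher and 144 lower. A replicate block gave 1509 higher and 882 lower, with 2333 of 3482 calls kept, but the numbers were not shown to pair libraries (correlations of deviations -0.061, 0.170 and -0.007). The other filters, pseudocount, array weights and gene summing stayed within 1.5 times. The median over all genes turned from 0.07 to -0.017 with upper-quartile scaling and to -0.068 with quantile normalization.

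Other stage 3 libraries changed the counts too, and the cause was not tested. With all 6, 1740 genes were higher and 411 lower, at a median of 0.48. Reversed were the median of egress, adhesion and residency genes (0.12), of erythroid markers (-0.16), and Zap70 (0.11), Runx3 (0.16), Ltb (1.73), Junb (0.33) and Gimap1 (0.18). With libraries 4 to 6 alone, 6152 were higher and 1486 lower, at a median of 0.90. Reversed there were the medians of egress, adhesion and residency genes (1.09), of AP-1, NF-κB and early response genes (1.07), of myeloid and dendritic cell markers (-0.43) and of erythroid markers (-3.05). Genes reversed there were Zap70 (0.91), Zbtb16 (1.12), Tbx21 (1.31), Runx3 (0.93), Jak1 (0.50), Il2rb (0.047), Il2rg (-1.50), Stat5a (1.86), Ltb (4.48), Tnfsf14 (0.71), Il18r1 (0.98), Cxcr4 (0.27), Cxcr6 (-0.99), Klf2 (1.85), Itga1 (0.38), Jun (0.98), Junb (3.46), Nfkbia (0.014), Gimap1 (1.36), Nop56 (-0.44), Cd74 (-0.43), H2-Aa (-0.80) and Notch1 (1.35).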

Other observations

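Lists of other T cell types had few tested members, so their counts are given beside 19.7% higher and 12.3% lower over all genes and are not read as results about these lists. Of 12 tested genes of stage 1 and of IL-4 producing NKT cells, 3 were higher and 3 lower. Ccr4, a chemokine receptor of that list, was at 13.55, 20.7, 23.2 and 27.6 FPKM in DN1eP-NKT and at 4.68, 4.53 and 5.81 in stage 3, and at 103 and 131 in the 2 stage 1 libraries of the same set, so it stood between stage 3 and stage 1. Icos, a costimulator of the list, did not pass (0.27 ± 0.15). Of 12 tested genes of IL-17 producing NKT cells, 3 were higher and 2 lower, Itgb3 among the former. Of 7 tested γδ T cell genes 3 were higher and 2 lower, with Gzma one of the higher ones, and of 9 genes of immature thymocytes 1 was higher and 2 lower. The higher one, Themis, a signalling protein of thymic selection, was at 1.64, 2.72, 2.14 and 3.42 FPKM in DN1eP-NKT and at 0, 1.09 and 0.596 in stage 3.

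Markers of further cell types were few and low. The stem cell factor receptor Kit, a mast cell and progenitor gene, was at 8.12, 4.06, 4.402 and 3.22 FPKM. It was listed at 0 in stage 3 libraries 1 to 3, and was 1 of 4 tested mast cell and basophil genes, the only one called. Cd74 and H2-Aa of MHC class II were the 2 higher ones of 5 tested myeloid and dendritic cell genes. Cd74 was at 20.9, 14.8, 11.9 and 10.4 FPKM against 0.819, 0 and 1.47, and H2-Aa at 4.55, 3.39, 2.81 and 1.76 and listed at 0 in stage 3. Both were high in stage 3 library 5 (4.71, 337 and 3.3 and 1.54, 82.2 and 0.588 in libraries 4 to 6), a library outside the main comparison, and their differences turned to -0.43 and -0.80 against libraries 4 to 6. Of adipocyte genes, which OP9 cells can express, 3 of 4 were higher, with library 1 at a median of 20.5% of libraries 2 to 4 and Fabp4 at 3.25, 15.1, 18.5 and 13.9 FPKM and listed at 0 in stage 3. Of 2 tested B cell genes 1 was higher, and the 1 tested erythroid gene did not pass.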
